A study of Rattus norvegicus with 3 samples.

Results

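The genes described here are 9 integrin subunits by which cells of the arterial wall hold on to matrix: Itga1, Itga5, Itga7, Itga8, Itga9, Itgav, Itgb1, Itgb3 and Itgb5. They were chosen by name, and their probes were found through the RefSeq accession that each array design gives for a spot. Of the 9 genes, 7 had a matched probe on any array, with 15 probes in all, and 6 (Itga1, Itga5, Itga7, Itga8, Itgb1 and Itgb5) were bright enough on all 3 arrays to be compared at a probe that every array carries. Itga9 and Itgav had no matched probe and are not measured here. Genes matched in the whole series numbered 13833 on the design of the uninjured and day 21 arrays and 7796 on the probes common to all arrays.

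The samples were whole common carotid arteries of male Wistar rats taken 7 days after balloon injury, 21 days after balloon injury, or without injury. Balloon injury drags an inflated balloon through the vessel, which removes the endothelium and stretches the muscle layer. RNA was isolated per animal and hybridised to one-colour Agilent arrays. There was 1 array per group, so no test was possible and every difference below is a difference between 2 arrays. No age is given in the labels, and the RNA came from all layers of the wall, so that fewer cells of a type and less RNA per cell cannot be told apart.

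Integrins are membrane receptors made of an alpha and a beta subunit. The alpha subunit largely sets which matrix protein is bound, and the beta subunit connects to talin, kindlin and the actin cytoskeleton. Itgb1 pairs with Itga1 (a collagen receptor), Itga5 (the main fibronectin receptor), Itga7 (a laminin receptor of muscle), Itga8 (a receptor for nephronectin and fibronectin) and Itga9 (a receptor for tenascin C and osteopontin). Itgav, which binds vitronectin and other proteins with an RGD motif, pairs with Itgb1, Itgb3 and Itgb5. Contractile smooth muscle cells of the uninjured media lie in a basement membrane rich in laminin and type IV collagen, whereas cells of the thickening intima after balloon injury meet a matrix rich in fibronectin, osteopontin and tenascin C.

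RefSeq promoter sequences (GRCr8) matched 7 of the 9 genes by symbol. The 250 bases before the annotated start are shown for the beta subunit shared by most of the pairs (Itgb1, chr19:73602027-73602276, plus strand), for the fibronectin receptor that was higher at day 7 (Itga5, chr7:136381306-136381555, minus strand) and for the alpha subunit that was lower at both times (Itga8, chr17:80410634-80410883, minus strand). Capitals mark matches, on either strand, to the GC box GGGCGG and to the TEAD motif GGAATG.
Itgb1: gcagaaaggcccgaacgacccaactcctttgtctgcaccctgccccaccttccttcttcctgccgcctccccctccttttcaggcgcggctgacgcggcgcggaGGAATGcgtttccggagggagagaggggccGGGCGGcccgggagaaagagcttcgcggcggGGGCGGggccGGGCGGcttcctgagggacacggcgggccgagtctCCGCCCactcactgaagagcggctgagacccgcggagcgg
Itga5: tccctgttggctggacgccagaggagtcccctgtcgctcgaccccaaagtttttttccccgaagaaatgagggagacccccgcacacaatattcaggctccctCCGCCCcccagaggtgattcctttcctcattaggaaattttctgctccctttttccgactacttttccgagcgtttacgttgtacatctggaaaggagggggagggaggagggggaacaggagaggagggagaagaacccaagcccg
Itga8: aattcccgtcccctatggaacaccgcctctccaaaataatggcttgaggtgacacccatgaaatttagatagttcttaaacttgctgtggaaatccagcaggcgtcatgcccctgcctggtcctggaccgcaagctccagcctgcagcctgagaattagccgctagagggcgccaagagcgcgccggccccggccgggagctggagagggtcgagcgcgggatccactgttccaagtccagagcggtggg
The Itgb1 window held 4 GC boxes and 1 TEAD motif, the Itga5 window 1 GC box, and the Itga8 window neither. The GC box occurs in 30.5% and the TEAD motif in 12.1% of the 33465 RefSeq windows of the same length. The CArG box bound by serum response factor (found in 1.50% of all windows) and the AP-1 motif TGANTCA (6.34%) matched in none of the 7 integrin windows. The motifs do not overlap each other here, and a match is a description of letters only.

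The design, scan and scanner software of the day 7 array were its own, so that batch and time after injury cannot be told apart wherever this array is compared. Day 21 and uninjured shared all of these. Between 59.8% (uninjured) and 76.5% (day 7) of an array's probes passed the scanner's mark for being well above background, and 0 spots were saturated. Signals below are log2 intensities minus the array's 75th percentile, so that 0 is the 75th percentile of that array. Comparisons with day 7 used the 10583 probes on all arrays, and the comparison of day 21 with uninjured used all 40989 probes of the shared design, so a gene's signal on an array has a different value in each. The figure after ± is the error of replicate spots, which is technical and leaves out the differences between rats.

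At day 7 the fibronectin receptor subunit was higher and the smooth muscle subunit Itga8 lower than in the uninjured artery. Itga5 was 2.11-fold higher, and Itga8 was 3.76-fold lower at a probe that was dim at day 7. Itga1 and Itgb1 lay just inside a 2-fold difference. A difference of 2-fold or more upward was seen for 1 of 6 measured members, beside 16.1% of all 5249 measured genes, and downward for 1 of 6, beside 16.3% of genes. Each share is near the background. The median log2 ratio of the members was -0.83, against -0.01 over all measured genes.

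Itga5 had a log2 signal of 1.28 at day 7, against 0.20 in the uninjured artery (log2 ratio 1.08 ± 0.15). Its ratio was above that of 85.4% of measured genes. Scaling each array on its own design turned this ratio to -0.14, and under 8 of 9 alternatives it stayed positive. The 8 include leaving out the filter on dim probes and the mean over probes, which could not change this ratio. They also include the authors' deposited table, whose uninjured value of 5.54 differs from the probe's unscaled scanner log2 signal of 7.19. Itga8 had a log2 signal of -2.58 at day 7, against -0.67 in the uninjured artery (-1.91 ± 0.51), and only 4.36% of genes had a lower ratio. Its 2-fold difference held under all 8 alternatives on scanner values, which all read the same day 7 spot and so cannot check that reading. In the authors' deposited table, whose Itga8 row is named for a probe of the day 7 design alone, the difference is of the opposite sign, at 2.20. The day 7 spot was dim, with an intensity of 38.5, which is why its spot error is the widest of the 6. The Itga8 probe of the day 7 design alone had a mean intensity of 3171 over 10 spots on that array. It was above 95.5% of the array's probes, and it has no counterpart on the other arrays.

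Itga1, the collagen receptor subunit, had a log2 signal of 1.75 at day 7, against 2.74 in the uninjured artery (-0.99 ± 0.09). Itgb1, the common partner, had a log2 signal of 4.95 at day 7, against 5.92 in the uninjured artery at its brighter probe (-0.96 ± 0.13). Both were lower by nearly the same factor, 1.99-fold and 1.95-fold, and both kept the negative sign under all 9 alternatives. Of the reference genes fixed to judge RNA and scaling, the 3 measured in this comparison were lower by similar amounts: beta-actin (Actb) was at -1.27, Hprt1 at -0.78 and Tbp at -0.53, a median of -0.78. Their part in the members' ratios was not tested. Itgb5, which joins Itgav in a vitronectin receptor, had a log2 signal of 0.24 at day 7, against 0.94 in the uninjured artery (-0.70 ± 0.12); in the authors' deposited table, again at a probe of the day 7 design alone, its difference is 0.81. Itga7, the laminin receptor subunit of muscle, had a log2 signal of 1.16 at day 7, against 0.34 in the uninjured artery (0.83 ± 0.14), read at the dimmer of its probes because the brighter one is not on the day 7 design. Its sign was negative under 2 of 9 alternatives.

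**Figure D1:**
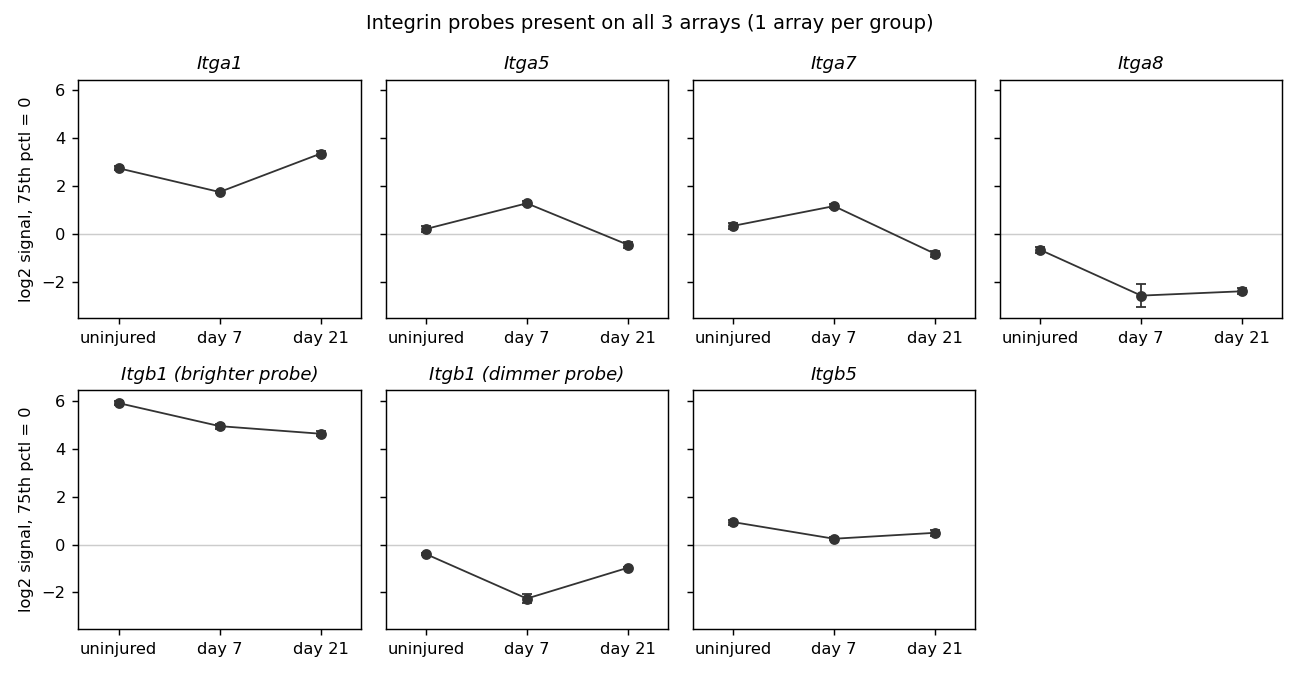
Log2 signal of the 7 integrin probes present on all arrays (vertical axis, 0 is the array's 75th percentile over shared probes) in the uninjured, day 7 and day 21 arteries (horizontal axis, 1 array each); bars are the error of replicate spots. Itga5 and Itga7 are highest at day 7 and lowest at day 21, Itga1 is lowest at day 7 and highest at day 21, and both Itgb1 probes are highest in the uninjured artery.

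At day 21 the muscle subunits were the lowest members and Itga1 stood above the uninjured artery. Itga7 was 3.92-fold lower, Itga8 2.35-fold lower and Itgb1 2.20-fold lower, while Itga1 was 1.69-fold higher. A difference of 2-fold or more downward was seen for 3 of 6 measured members (13.7% of all 9420 measured genes), and upward for 0 of 6 (9.11% of genes). The members' median log2 ratio was -0.82 and that of all genes -0.20. Median scaling instead of the 75th percentile moved the median of all genes to 0.28, and then 1 member lay past 2-fold in each direction.

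Itga7 had a log2 signal of 5.60 at day 21, against 7.57 in the uninjured artery, at its brighter probe (log2 ratio -1.97 ± 0.13), and 2.04% of genes had a lower ratio. Its dimmer probe was also lower at day 21, at 0.68 against 1.69 in the uninjured artery (-1.02 ± 0.17). The 2-fold difference of Itga7 held under all 9 alternatives. Itga8 had a log2 signal of 0.41 at day 21, against 1.64 in the uninjured artery, at its brighter probe (-1.23 ± 0.17), and the other probe was at -0.89 against 0.69 in the uninjured artery (-1.58 ± 0.19).

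Itgb1 had a log2 signal of 6.14 at day 21, against 7.28 in the uninjured artery, at its brighter probe (-1.13 ± 0.13). Its sign held under all 9 alternatives, but the 2-fold difference held under only 3 of them. Itga1 had a log2 signal of 4.86 at day 21, against 4.10 in the uninjured artery (0.76 ± 0.13), above 87.5% of measured genes, and stayed higher under all 9 alternatives, with a range of 0.61 to 1.36. Itga5 was lower by less than 2-fold at day 21, at 1.05 against 1.56 in the uninjured artery (-0.51 ± 0.17), and Itgb5, with unscaled intensities of 540 at day 21 and 244 in the uninjured artery, had a scaled log2 ratio of -0.30 ± 0.16. Relative to the median of all genes, the Itgb5 ratio differs by less than its spot error.

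**Figure D2:**
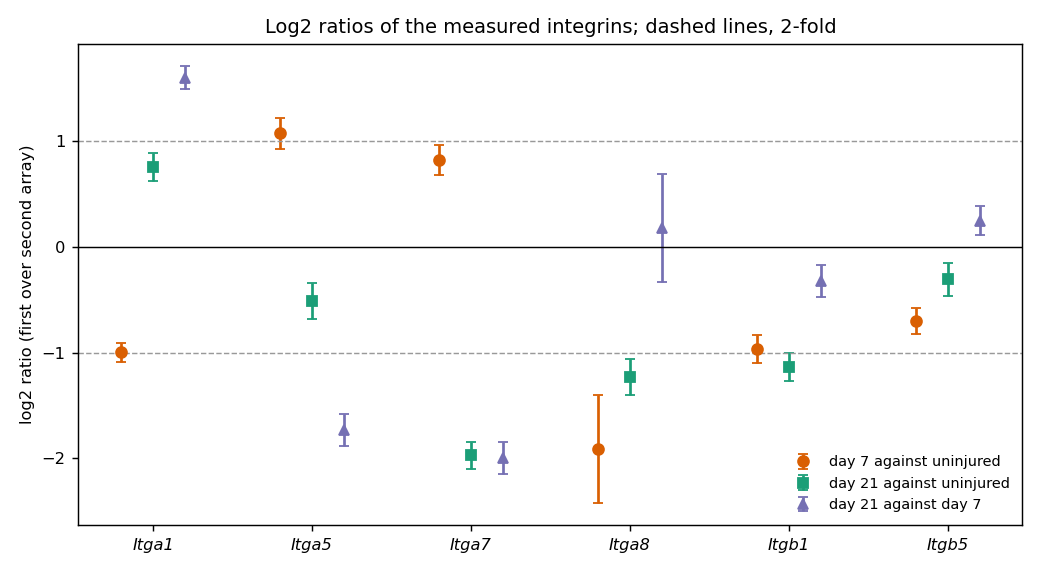
Log2 ratio (vertical axis) of each of the 6 measured integrins (horizontal axis) for day 7 over uninjured, day 21 over uninjured and day 21 over day 7; bars are the error of replicate spots and dashed lines mark 2-fold. Itga1 and Itga5 lie on opposite sides of 0 at the 2 times after injury, as does Itga7, which is read at its brighter probe for day 21 over uninjured and at its dimmer probe otherwise, and Itga8 and Itgb1 are below 0 at both times.

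Between the days after injury the collagen and fibronectin receptor subunits differed in opposite directions. Itga1 was higher at day 21, by 3.04-fold over day 7, with log2 signals of 3.36 at day 21 and 1.75 at day 7 (log2 ratio 1.60 ± 0.11), and 95.6% of genes had a lower ratio. Itga5 was 3.32-fold lower at day 21, at -0.45 against 1.28 at day 7 (-1.73 ± 0.15). Itga7 was 3.98-fold lower, at -0.83 at day 21 against 1.16 at day 7 (-1.99 ± 0.15). Here 1 of 6 members was past 2-fold upward, beside 10.7% of all 5641 measured genes, and 2 of 6 downward, beside 20.0%. Itga7 turns to 2.67 in the authors' deposited table, the only alternative that reverses one of these 3 differences.

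The other members were within 2-fold between day 21 and day 7 at the probes and scaling used. Itga8 had log2 signals of -2.40 at day 21 and -2.58 at day 7, a difference inside its spot error (0.18 ± 0.51). Itgb5 was at 0.49 at day 21 and 0.24 at day 7 (0.25 ± 0.14), and Itgb1 at 4.64 at day 21 and 4.95 at day 7 (-0.32 ± 0.15). These 2 differences exceed the spot error and turn sign in 1 of 8 and 4 of 9 alternatives. With own-design scaling all of these members were past 2-fold upward, at 1.55 for Itga8, 1.62 for Itgb5 and 1.05 for Itgb1, and the dimmer Itgb1 probe was at 1.29 ± 0.20. The median of the members was -0.07 and that of all genes -0.19. On the shared probes the order of the 3 arrays was therefore day 21, uninjured, day 7 for Itga1, and day 7, uninjured, day 21 for Itga5 and Itga7, with neighbours apart by more than the spot error. For Itga8 the uninjured artery was highest, with the other two arrays inside the spot error of each other.

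**Figure D3:**
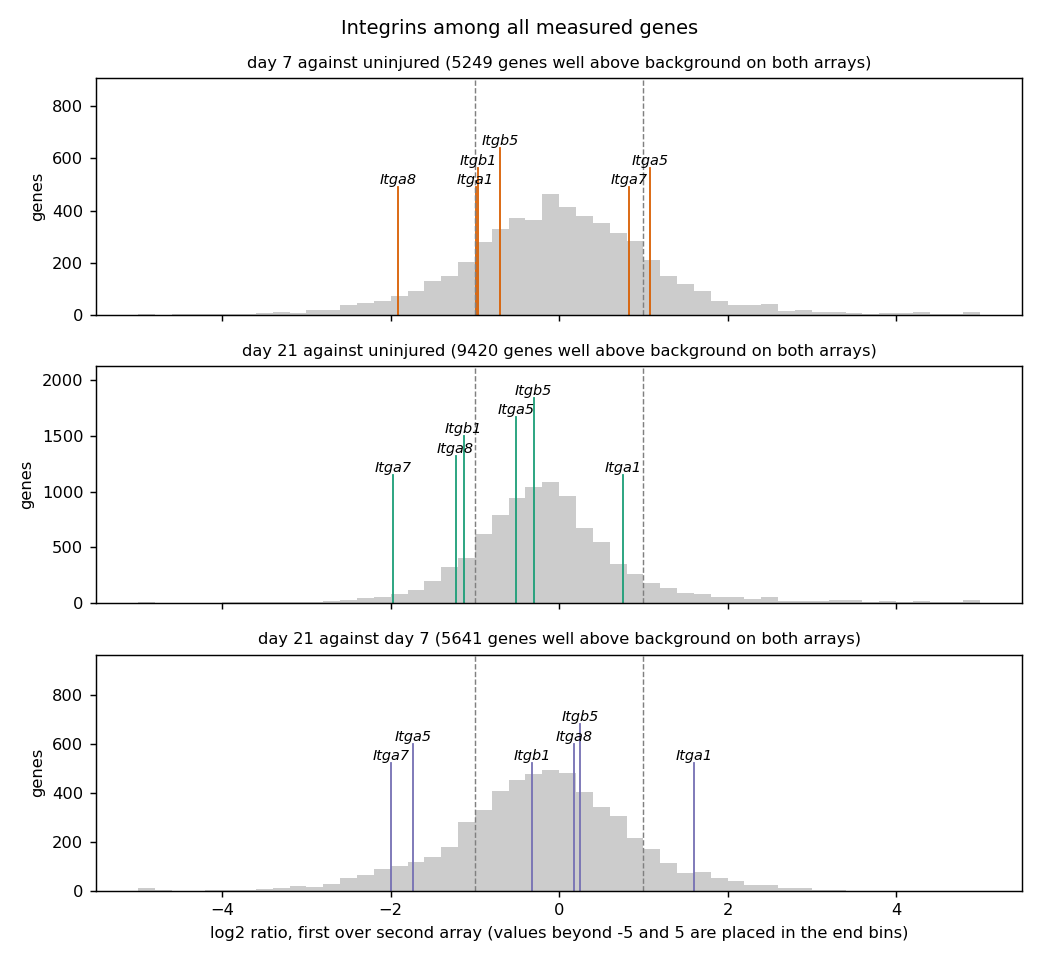
Distribution of log2 ratios over all genes well above background on both arrays (grey bars, number of genes per bin of 0.2; vertical axis) in each comparison, with the 6 integrins as coloured lines and dashed lines at 2-fold. Itga8 is the lowest member at day 7, Itga7 at day 21 and between the days, and Itga1 is the highest member in both comparisons of the day 21 array.

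A difference between an alpha subunit's ratio and that of Itgb1 is free of any constant scaling between arrays. Median and own-design scaling therefore cannot move such a difference. At day 7 the Itga5 ratio was 2.04 ± 0.20 above that of Itgb1, with a range of 1.43 to 2.49 over the 8 alternatives on scanner values. Leaving out the filter on dim probes or keeping flagged spots also left it unchanged, so the range comes from the other alternatives. Itga1 was within the spot error of Itgb1 at day 7 (-0.03 ± 0.16), with a range of -0.29 to 0.42. At day 21 the Itga1 ratio was 1.89 ± 0.19 above that of Itgb1 (1.54 to 1.93 under the same kind of alternatives). The Itga8 ratio was within the spot error of the Itgb1 ratio at the probes used (-0.10 ± 0.21). It was below the Itgb1 ratio under all 8 alternatives on scanner values, by -0.63 to -0.08. The Itga5 ratio was 0.62 ± 0.21 above that of Itgb1 at day 21, with a range of -0.15 to 0.62. For Itga7 the difference was 1.79 ± 0.19 at day 7, from its dimmer probe, and -0.84 ± 0.18 at day 21, from its brighter probe. The day 7 value was -3.24 in the authors' deposited table. The day 21 value ranged from -0.88 to 0.12 under the alternatives on scanner values.

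Probes of the same gene did not always give the same size of difference. The dimmer Itgb1 probe, printed on 10 spots, had a mean intensity of 52.1 at day 7 (23.2 to 82.2 over its spots), against 96.9 in the uninjured artery (84.5 to 108), which is a log2 ratio of -1.86 ± 0.20 after scaling. At day 21 it had a mean intensity of 196 over 9 spots (166 to 214), a log2 ratio of -0.43 ± 0.06. The 2 Itgb1 probes thus agreed in sign against the uninjured artery, but between the days they were of opposite sign, at 1.29 ± 0.20 for the dimmer and -0.32 ± 0.15 for the brighter probe. Of the 3 Itga5 probes, the 2 dim ones are on the older design only. One was at -2.61 at day 21, against -1.25 in the uninjured artery (-1.36 ± 0.31), and the other was too dim on the uninjured array to be compared.

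Itgb3, the subunit that with Itgav binds vitronectin and osteopontin and with Itga2b makes the platelet fibrinogen receptor, could not be compared. On the older design its probe was too dim at day 21 (intensity 13.3) and in the uninjured artery (intensity 2.44) to count as well above background. The day 7 design has another probe, which was well above background with an intensity of 45.2, and 48.2% of that array's probes were dimmer. Platelet markers were higher at day 7: 4 of 4 measured genes of that list were past 2-fold, among them Gp9 (log2 ratio 2.51) and Pf4 (1.40), and their summed signal was 49.3 times the 75th percentile at day 7, 31.4 at day 21 and 18.5 in the uninjured artery. At day 21, 0 of 5 were past 2-fold upward and 1 (Gp1bb, -1.42) downward. For all measured genes, the upward and downward shares were 16.1% and 16.3% at day 7, and 9.11% and 13.7% at day 21. The part of platelets in the Itgb3 signal was not tested. The day 7 design also has its own probes for Itga8 (mean intensity 3171 over 10 spots) and Itgb5 (intensity 2185), with no counterpart on the other arrays.

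The authors' deposited table gives log2 values for 6 members and differs from the scanner signals for several. Its Itga7 row carries the name of the dimmer probe, yet in the authors' deposited table it is at 8.98 at day 7 and 13.24 in the uninjured artery, where the scanner's log2 signal of that probe was 9.01 at day 7 and 7.32 in the uninjured artery. The brighter Itga7 probe had a scanner log2 signal of 13.20 in the uninjured artery. The difference of day 7 and uninjured in the authors' deposited table is thus -4.26 for Itga7, against 0.83 at the shared probe. In the authors' deposited table the Itgb1 row, also named for a dimmer probe, has 11.95 at day 7 and 12.97 in the uninjured artery, where the scanner's log2 signals of that probe were 5.59 and 6.59. Itga5 has the same signs as here but wider differences in the authors' deposited table, at 3.57 for day 7 and -1.26 for day 21. Its row there has 9.11 at day 7, 4.28 at day 21 and 5.54 in the uninjured artery. The scanner's log2 signals of the probe that names the row were 9.13, 8.13 and 7.19. The 3.57 is therefore not a reading of that probe alone. Itga1 has -1.49 and 0.79 in the authors' deposited table. The Itga8 and Itgb5 rows are named for probes that only the day 7 design holds. In the authors' deposited table Itga8 nevertheless has 10.70 at day 7, 6.91 at day 21 and 8.50 in the uninjured artery, a day 7 difference of 2.20 against the -1.91 of the shared probe. Itgb5 has 10.32 at day 7, 9.12 at day 21 and 9.51 in the uninjured artery in the authors' deposited table. Of rows in the authors' deposited table whose probe is on the uninjured array, 3.02% lie more than 2 log2 units from the scanner value after alignment of the medians, as do 1.86% on the day 7 array.

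Other integrin subunits that the list holds are mostly those of leukocytes and epithelia. Itgb2, the beta subunit of leukocyte integrins, and its partner Itgam were both too dim on the uninjured array, so that their differences are bounds set against the lowest signal well above background there. For Itgam the bounds were at least 10.1-fold at day 7 and at least 16.5-fold at day 21, both upward. For Itgb2 they were, also upward, at least 16.1-fold at day 7 and at least 149-fold at day 21. Itgb7, of lymphocyte integrins, was 5.43-fold higher at day 7. Itgb4, of the epithelial laminin receptor, was 2.46-fold higher at day 21, and Itgae was 2.22-fold lower. Of the 17 subunits listed, 2 were measured on both arrays at day 7 and 5 at day 21.

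Genes of the integrin adaptor and focal adhesion list were more often past 2-fold lower than higher. Of 20 measured at day 7, 7 were past 2-fold downward and 3 upward, beside 16.3% and 16.1% of all genes. Their median log2 ratio was -0.32 (all genes -0.01). Its difference from the median of all genes ran from -0.36 to 0.33 over the alternatives. Of 33 measured at day 21, 11 were past 2-fold downward and 3 upward, beside 13.7% and 9.11% of all genes. Their median was -0.34 (all genes -0.20) and ranged from -0.41 to 0.14 over the alternatives. Vinculin (Vcl), which joins talin to actin, was at -2.90 ± 0.08 at day 7 and -1.31 ± 0.13 at day 21, although the authors' deposited table puts the day 7 difference on the other side of 0, at 0.19. The kindlin Fermt2, an activator of Itgb1, was at -1.54 ± 0.12 at day 7 and -2.21 ± 0.15 at day 21. Filamin A (Flna), which binds beta tails, was at -1.42 ± 0.13 and -1.98 ± 0.13, and focal adhesion kinase (Ptk2) at -1.19 ± 0.04 and -1.66 ± 0.08. The day 7 value of Ptk2 was positive under 1 of 9 alternatives, at 0.65. The leukocyte kindlin Fermt3 was 22.9-fold higher at day 21. Parvb, a partner of integrin-linked kinase, was 3.74-fold higher at day 7, while that kinase (Ilk) was 2.35-fold lower. The negative signs of Fermt2 and Flna held under all 9 alternatives at both times.

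Ligands of these integrins were higher and lower in similar numbers. At day 7, 6 of 16 measured were past 2-fold upward and 5 downward, beside 16.1% and 16.3% of all genes. Their median log2 ratio was 0.61 (-0.61 to 0.61 over the alternatives), against -0.01 for all genes. At day 21 the counts were 6 and 6 of 23, beside 9.11% and 13.7% of all genes. The median was -0.68 (-0.83 to 0.04), against -0.20 for all genes. Ligands of the Itgav group stood on both sides of the uninjured artery. Fibronectin (Fn1), bound by Itga5, was at 1.65 ± 0.13 at day 7 and 2.44 ± 0.13 at day 21, and osteopontin (Spp1), bound by Itgav pairs and Itga9, at 2.82 ± 0.05 and 2.94 ± 0.02. Ccn2, a matricellular growth factor that binds Itgav pairs, was the lowest of the list at day 7, at -2.43 ± 0.04, and was at -1.30 ± 0.03 at day 21. Bone sialoprotein (Ibsp), another RGD protein, was at -1.27 ± 0.58 at day 7 and -1.49 ± 0.22 at day 21. At day 21 the fibrinogen chains Fgb (-1.57) and Fgg (-1.04) and the latent TGF-beta binding protein Ltbp1 (-1.28) were lower too. Also past 2-fold upward were Vcam1 (1.85), Tgfb1 (1.09), Fbn1 (1.05) and Emilin1 (1.04) at day 21. The Fbn1 ratio ran from -1.01 to 1.64 over the alternatives. At day 7 Tgfb1 (1.88), Postn (1.80), Vcam1 (1.35) and Col1a1 (1.26) were past 2-fold upward, and Lama5 (-1.10) and Col3a1 (-1.06) downward. For tenascin C (Tnc), a ligand of Itga9, the difference was upward, by at least 24.9-fold at day 7 and at least 7.28-fold at day 21. Vitronectin (Vtn) was upward by at least 11.0-fold at day 7 and at least 6.86-fold at day 21. The laminin chain Lamb2, part of the ligand of Itga7, was at -2.08 ± 0.12 at day 7 and -1.98 ± 0.14 at day 21. Of the other laminin chains measured, Lama5 was at -1.10 and -0.81, and Lamc1 was on the other side of 0, at 0.705 and 0.51. Itga5 and Fn1 were thus both above the uninjured artery at day 7, whereas at day 21 Fn1 was 5.41-fold higher and Itga5 1.42-fold lower. Fn1, Spp1, Ccn2, Ibsp and Lamb2 kept their sign under all 9 alternatives at both times.

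Markers of the wall's cell types also differed between the arrays. For all measured genes, the shares past 2-fold upward and downward were 16.1% and 16.3% at day 7, and 9.11% and 13.7% at day 21. Of the contractile smooth muscle list, 3 of 4 measured genes were past 2-fold downward at day 7 (Cnn1 at -3.08, Tagln at -2.20, Des at -1.99) and 8 of 8 at day 21. The remaining gene at day 7, Lmod1, was at 0.30. The list's summed signal on shared probes was 37.2 times the 75th percentile at day 7, 28.2 at day 21 and 172 in the uninjured artery. Macrophage markers were past 2-fold upward for 6 of 7 at day 7 and 10 of 10 at day 21, with sums of 104 at day 7, 258 at day 21 and 7.07 in the uninjured artery. Endothelial markers were past 2-fold upward for 4 of 4 at day 7 and 4 of 6 at day 21, with sums of 6.18 at day 7, 7.06 at day 21 and 1.46 in the uninjured artery, where Tek and Tie1 were too dim to be compared. The part of these cells in the ratios of Itga1, Itga5, Itga7, Itga8 and Itgb1 was not tested.

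**Figure D4:**
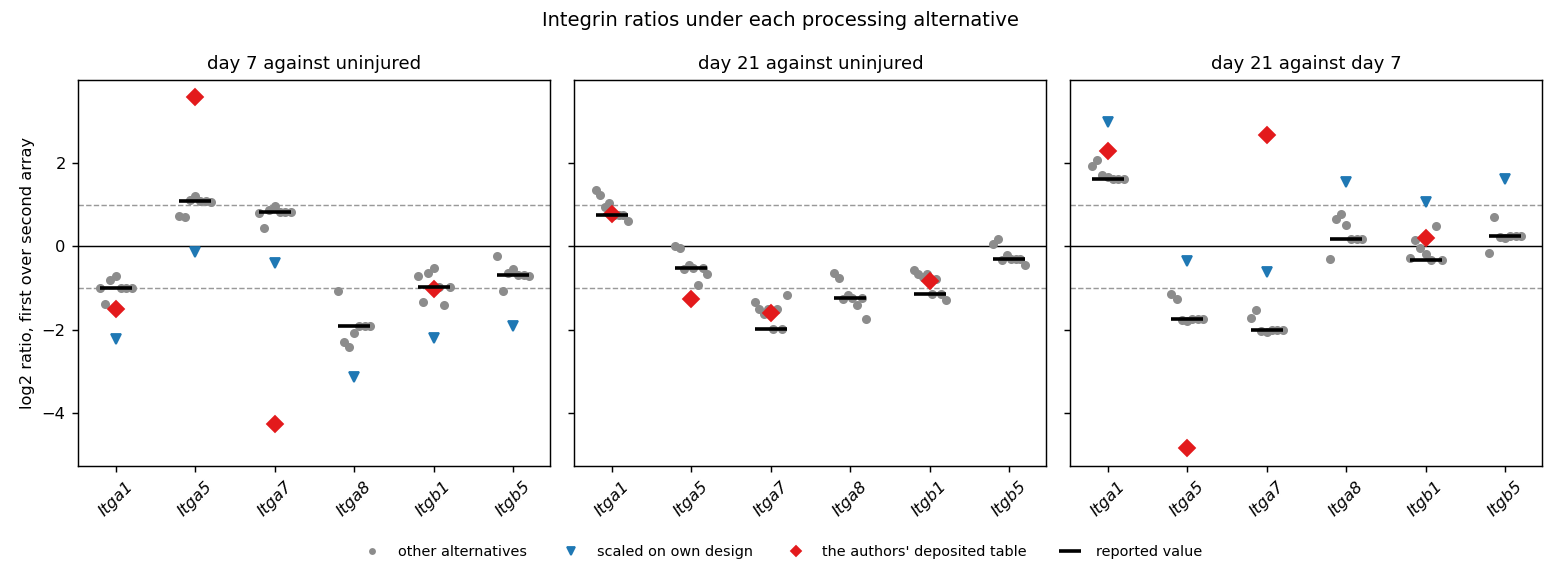
Log2 ratio (vertical axis) of each measured integrin (horizontal axis) in the 3 comparisons, as reported (black bar), with own-design scaling of each array (blue triangle), in the authors' deposited table (red diamond) and under the other alternatives (grey points); Itga8 and Itgb5 have no point for the table, whose rows for them are at probes missing from the older design; dashed lines mark 2-fold. The day 21 over uninjured ratios of Itga7 lie below -1 in every case, and the day 7 ratio of Itga7 lies at -4.26 in the authors' deposited table and at 0.83 as reported.

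Genes with a pattern close to that of a member over the 3 arrays were sought among 5171 genes well above background on all of them. For Itga1, the member with the highest day 21 ratio on shared probes (-0.99 at day 7 and 0.61 at day 21), the nearest were Spg21 (-0.97 and 0.61), Cept1 (-1.04 and 0.59) and Cyp26b1 (-0.97 and 0.67). For Itga8, the member with the lowest day 21 ratio there (-1.91 and -1.73), the nearest were Zfp612 (-1.91 and -1.75), Sgca (-1.88 and -1.71) and Rrad (-1.83 and -1.79). The measure was the distance over these 2 log2 ratios against the same uninjured array, which was at most 0.10 for these genes, and 3 arrays cannot tell close patterns apart.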

How the data were processed

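Spot intensity values from 3 one-colour Agilent arrays were deposited by the authors as Feature Extraction output, version 11.0.1.1 for day 7 and 10.7.3.1 for day 21 and uninjured, per the file headers. These values are background-subtracted and detrended within the array and not normalized between arrays. The authors' deposited table holds log2 values; its scale and direction follow the scanner signals (column medians of 7.62 at day 7, 7.64 at day 21 and 7.64 in the uninjured artery), while its centring and normalization are not given in the sources used here.

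Control spots were dropped, as were outlier-flagged spots (0.242% of gene spots on the uninjured array to 1.46% on the day 7 array). Log2 values of a probe's spots were averaged and the array's 75th percentile was subtracted. Accessions were matched without versions to RefSeq names of GRCr8 (42.7% of probes of the older design and 76.0% of shared probes); the array designs are on rn4, and gene coordinates are not used here. Each gene was read at its brightest probe on average over the arrays compared. The spot error comes from the SD of replicated spots at like signal, or the standard error where a probe has 5 or more spots. No model was fitted; differences were described by a 2-fold threshold among genes that passed the background mark on both arrays. The number of arrays limits the precision.

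The genes and lists were chosen with earlier results of these data known. All members are named. From each list of related genes at most 6 measured genes per direction and comparison are named as past 2-fold. These are not always those with the largest ratios. Some genes with larger ratios are left out. Gp9, Pf4, Gp1bb, Acp5, Ctsk, Calcr, Lamc1, the reference genes and the muscle markers were named after their values were seen. Alternatives were normexp background correction (on the median signal, since the files hold no mean signal), median scaling, quantile normalization and cyclic loess in limma 3.58.1 and R 4.3.3, no filter on dim probes, the mean over probes, flagged spots kept, other probe sets for the scaling, and the authors' deposited table. The ratio calculation was tested on simulated data with known differences. Further rats that the design text speaks of were not analysed here.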

Additional observations from a re-analysis of the deposited data

Results flagged for a closer look

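Itga1, Itga5 and Itga7 were on opposite sides of the uninjured artery at day 7 and day 21 on the same probe, and this difference was not tested, since each group has 1 array. The log2 ratio of day 21 to day 7 was 1.60 for Itga1, -1.73 for Itga5 and -1.99 for Itga7. On shared probes Itga1 was at -0.99 at day 7 and 0.61 at day 21, Itga5 at 1.08 and -0.66, and Itga7 at 0.83 and -1.17. With own-design scaling Itga5 was at -0.14 and Itga7 at -0.39 at day 7, and the authors' deposited table has Itga7 at -4.26, so that in those cases the day 7 value of these genes also lay below the uninjured artery. Array design, scan and time after injury cannot be told apart here.

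Signals that no comparison used came from probes that only the day 7 design holds. Itga8 had a mean intensity of 3171 over 10 spots (2867 to 3558), Itgb5 an intensity of 2185 and Itgb3 an intensity of 45.2, all well above background. With no such probe on the other arrays, no ratio can be given.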

How the results depend on the processing

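With 1 array per group no array could be left out. No paired analysis was possible, since each group has 1 array and the labels give no pairing of animals. The authors' deposited table was not counted for Itga8 and Itgb5, whose rows are at probes missing from the older design; its day 7 differences, 2.20 and 0.81, oppose the signs reported. Of the 156 alternative values counted for the 18 member ratios, 144 kept the sign, and 11 ratios kept it in all that were counted. These counts include values that were fixed in advance. Leaving out the filter on dim probes could not change any of these ratios. The mean over probes could not change the ratio of a gene with 1 probe in the comparison. The 12 opposite values were as follows. At day 7, own-design scaling (each array's 75th percentile taken over all its probes) put Itga5 at -0.14 and Itga7 at -0.39, and the authors' deposited table put Itga7 at -4.26. At day 21, Itgb5 was at 0.049 with normexp and 0.18 with median scaling. Between the days, normexp put Itga8 at -0.30 and Itgb5 at -0.15, Itgb1 was at 0.15 with median scaling, 0.48 with the mean over probes, 1.05 with own-design scaling and 0.19 in the authors' deposited table, and Itga7 was at 2.67 in the authors' deposited table. The members' median at day 7 (-0.83) was -0.46 with normexp, -1.21 with median scaling, -0.63 with quantile normalization, -0.53 with cyclic loess, -2.05 with own-design scaling and -1.25 in the authors' deposited table. At day 21 (-0.82) it was -0.29, -0.34, -0.64 and -0.55 with the same first 4 settings, -0.51 with no filter on dim probes and -1.04 in the authors' deposited table. Between the days (-0.07) it was -0.30 with normexp, 0.40 with median scaling, 0.095 with quantile normalization, 0.21 with the mean over probes, 1.30 with own-design scaling and 1.23 in the authors' deposited table.

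Members past 2-fold upward at day 7 (1) numbered 0 with normexp, median and own-design scaling. Those downward (1) numbered 4 with median scaling, 4 with own-design scaling, 2 with the mean over probes and 3 in the authors' deposited table. At day 21, 1 member was past 2-fold upward (0) with normexp, median scaling and cyclic loess, and 1 downward (3) with normexp and median scaling. Between the days, own-design scaling gave 4 upward (1) and 0 downward (2), and in the authors' deposited table there were 2 upward and 1 downward.

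Counts over all genes are given as upward and downward. At day 7 (845 and 853) they were 338 and 510 with normexp, 509 and 1428 with median scaling, 1830 and 1539 with no filter, 180 and 3120 with own-design scaling, and 417 and 1662 in the authors' deposited table. At day 21 (858 and 1293), 265 were downward with normexp, 787 with quantile normalization and 611 with cyclic loess. They were 1644 and 489 with median scaling, 1347 and 3168 with no filter and 525 and 390 in the authors' deposited table, and 497 were upward on shared probes only. Between the days (606 and 1128) they were 1215 and 630 with median scaling, 947 and 662 with quantile normalization, 1001 and 2089 with no filter, 3247 and 162 with own-design scaling and 1666 and 263 in the authors' deposited table, and 672 were downward with cyclic loess.

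The upward share of genes past 2-fold was 49.8% at day 7, against 39.9% with normexp, 26.3% with median scaling, 5.45% with own-design scaling and 20.1% in the authors' deposited table. At day 21 it was 39.9%, against 74.9% with normexp, 77.1% with median scaling, 55.6% with quantile normalization, 64.9% with cyclic loess, 29.8% with no filter and 57.4% in the authors' deposited table. Between the days it was 34.9%, against 65.9%, 58.9% and 56.5% with median scaling, quantile normalization and cyclic loess, 95.2% with own-design scaling and 86.4% in the authors' deposited table. Own-design scaling moved the median of all genes to -1.23 at day 7 and 1.18 between the days, and median scaling to -0.39 at day 7, 0.28 at day 21 and 0.27 between the days. These scalings set different probes or quantiles to 0; the cause of the other shifts was not tested. Signal near background limits Itga8 at day 7 and Itgb3.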

Other observations

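Cell type markers that the account above does not use gave the following values. Schwann cell markers were at a median log2 ratio of 3.77 at day 7 (4 of 4 measured at least 2-fold higher) and -0.87 at day 21 (0 of 4 higher and 1 lower). Fibroblast markers were at -0.26 over 5 genes at day 7 and -0.80 over 7 genes at day 21. Skeletal muscle markers, which bear on Itga7 because that subunit is abundant in skeletal muscle, were at -0.10 over 3 genes at day 7 and -0.79 over 5 genes at day 21, with 1 of 3 and 0 of 5 at least 2-fold higher and 1 of 3 and 2 of 5 at least 2-fold lower. Their ratios ran from -2.45 to 2.49 at day 7. At day 21 they ran from -4.01 (Ckm) to 0.56, with Acta1 at -2.26. For all measured genes, the shares past 2-fold upward and downward were 16.1% and 16.3% at day 7, and 9.11% and 13.7% at day 21.

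The osteoclast and bone list held Acp5, an enzyme of osteoclasts and lipid-laden macrophages, at 5.14-fold higher at day 7 and 13.0-fold higher at day 21, and Ctsk at 9.21-fold and 3.23-fold higher. These were the 2 genes of the list measured at day 7. Of the 3 measured at day 21, the remaining gene, Calcr, was lower, at a log2 ratio of -1.02. Itgb3, which osteoclasts also use, had no comparable signal. Reference genes of the quality list had a median of -0.06 over 7 genes at day 21.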
